A study of Mus musculus with 2 samples.

Results

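Klf1 and 7 genes of the red cell membrane were followed in mouse megakaryocytes, the large cells whose fragments become platelets. The genes were chosen by name, and all 8 were found among 43346 Ensembl genes and kept whatever their level. The data were 2 libraries of polyadenylated RNA from primary cells of embryonic day 14.5, with males and females pooled. Both libraries belong to 1 group, and no second condition is labelled. Since the 2 libraries share 1 cited biosample and donor, differences between them may be technical. The labels give no strain, genotype or treatment. Replicate 1 held 42099216 expected counts and replicate 2 held 2275922, an 18.5-fold difference in depth. An expected count estimates how many fragments came from a gene, and TPM is a level per length scaled to a fixed library total. Megakaryocyte RNA was present, since all 12 megakaryocyte markers reached a mean of 1 TPM, against 22.7% of all Ensembl genes. The middle of the list lay at 628 TPM in replicate 1 and at 863 TPM in replicate 2. Gp1bb was highest among them by mean (4021.96 and 7700.11 TPM) and Gp6 lowest (10.93 and 11.79 TPM), both of which encode platelet receptor subunits. That level does not set megakaryocytes apart, since 5 of 5 granulocyte and 7 of 8 macrophage markers also reached it. The globin gene Hba-a1 stood above every megakaryocyte marker (4480.45 and 12715.5 TPM).

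KLF1 is a zinc finger transcription factor of the red cell lineage that binds CACCC elements in the beta globin promoter and in many genes of the red cell. Erythroid and megakaryocyte cells come from a shared progenitor, where KLF1 and the megakaryocyte factor FLI1 are known to oppose each other. The red cell membrane is held by a lattice of spectrin. The lattice is tied through ankyrin and protein 4.2 to band 3, the anion exchanger, and to the Rh complex.

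The windows before the RefSeq start of members (GRCm38.p6) are shown for the 3 members above 1 TPM in both libraries (Klf1, Sptb and Aqp1) and for the 2 members at 0 counts (Rhag and Rhd), so that their letters can be set side by side. Capitals mark GATAA, the core letters bound by GATA factors, or CCNCNCCC, the letters bound by KLF1 and related factors, on either strand. Each window runs 5′ to 3′ along its gene and stops before the most upstream start in GENCODE M21 where that lies inside it. Klf1 is shown at chr8:84901732-84901927, plus strand, Rhag at chr17:40810899-40811125, plus strand and Rhd at chr4:134864286-134864535, plus strand. Sptb is shown at chr12:76710548-76710797, minus strand, and Aqp1 at chr6:55336049-55336298, plus strand.
Klf1: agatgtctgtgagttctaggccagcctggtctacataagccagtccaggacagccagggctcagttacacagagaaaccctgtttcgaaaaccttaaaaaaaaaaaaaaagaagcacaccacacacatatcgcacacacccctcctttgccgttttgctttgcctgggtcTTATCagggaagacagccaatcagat
Rhag: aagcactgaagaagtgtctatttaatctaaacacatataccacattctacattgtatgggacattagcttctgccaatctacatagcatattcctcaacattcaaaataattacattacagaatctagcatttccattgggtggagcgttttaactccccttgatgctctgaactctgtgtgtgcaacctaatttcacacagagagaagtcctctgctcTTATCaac
Rhd: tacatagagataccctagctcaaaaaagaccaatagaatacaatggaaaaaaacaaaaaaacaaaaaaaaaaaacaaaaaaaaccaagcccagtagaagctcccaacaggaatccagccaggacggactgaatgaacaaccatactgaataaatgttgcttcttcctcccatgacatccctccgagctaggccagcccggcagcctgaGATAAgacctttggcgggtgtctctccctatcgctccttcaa
Sptb: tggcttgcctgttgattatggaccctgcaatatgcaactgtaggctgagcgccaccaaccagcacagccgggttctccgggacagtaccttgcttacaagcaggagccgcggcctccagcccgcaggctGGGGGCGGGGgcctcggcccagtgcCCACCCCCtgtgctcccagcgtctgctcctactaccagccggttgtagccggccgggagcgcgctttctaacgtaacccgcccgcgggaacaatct
Aqp1: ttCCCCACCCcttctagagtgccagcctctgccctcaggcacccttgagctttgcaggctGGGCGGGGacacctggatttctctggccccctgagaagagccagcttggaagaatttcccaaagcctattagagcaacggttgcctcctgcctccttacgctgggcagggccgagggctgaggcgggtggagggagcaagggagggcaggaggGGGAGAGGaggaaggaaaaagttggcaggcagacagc

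A promoter entry was matched for 7 of the 8 members, all but Slc4a1, and 250 bases before each start were searched. GATAA was present in 5 of the 7, namely Klf1, Epb42, Rhag, Rhd and Ermap, and each held it once. It lay 80 bases before the RefSeq start in Klf1, 31 in Rhag, 42 in Rhd, 67 in Ermap and 226 in Epb42. Distances were counted from the first base of the match. The windows of Klf1, Rhag, Ermap and Epb42 reach a GENCODE start after 196, 227, 234 and 55 bases. The matches of these genes lie nearer to that start, above all in Epb42. CCNCNCCC was present in Sptb and Aqp1, with 3 matches in each, of which a pair overlapped in Sptb. No window held both motifs. Over all 32851 promoters of the same length, 22.6% held GATAA and 45.9% held CCNCNCCC. A match describes the letters and does not show that a factor was bound.

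RNA of the factor itself was present at a moderate level. Klf1 (ENSMUSG00000054191, chromosome 8, 84901928 to 84905291, plus strand, GRCm38) had 11.46 TPM in replicate 1, with 8.15 TPM in replicate 2, or 9.80 ± 2.34 TPM (SD, n = 2). These values rest on 629 and 21 counts, with exact 95% Poisson intervals of 581 to 680 and 13.0 to 32.1 counts. The mean level of Klf1 exceeded that of 88.4% of all Ensembl genes. Of these 43346 genes, 27189 had 0 counts in both libraries. The annotation gives Klf1 a single transcript of 3 exons, so its level is not divided between forms.

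Sptb, the beta spectrin of the red cell skeleton, was the highest member. Sptb (ENSMUSG00000021061, chromosome 12, 76580488 to 76710547, minus strand) had 24.75 TPM in replicate 1, with 23.96 TPM in replicate 2, or 24.4 ± 0.559 TPM (SD, n = 2). It held 7876 counts in replicate 1 and 376 in replicate 2. Sptb took 87.8% and 89.1% of all member counts and 60.5% and 60.4% of the summed member TPM. Its annotation shares 1 base with Plekhg3 on the other strand (779 and 8 counts), and it contains the small RNA gene Gm24010, also on the other strand, which had 0 counts in both libraries. Whether the counting used strand is not stated in the labels.

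Aqp1, the water channel of red cells and of many endothelial cells, followed Klf1 in mean TPM. Aqp1 (ENSMUSG00000004655, chromosome 6, 55336432 to 55348555, plus strand) had 4.45 TPM in replicate 1, with 2.17 TPM in replicate 2, or 3.31 ± 1.61 TPM (SD, n = 2), from 435 and 10 counts. Endothelial markers were set beside it. Of 6 such genes, 2 reached a mean of 1 TPM, against 22.7% of all Ensembl genes. The list summed to 119 TPM in replicate 1, with 70.9 TPM in replicate 2. Most of the sum came from Egfl7 and from Tie1 (30.79 and 49.62 TPM), the latter named after its value was seen. Egfl7, the highest, had 87.03 TPM in replicate 1, with 20.3 TPM in replicate 2, and Emcn, the lowest, had 0.23 and 0 TPM. Cdh5, the endothelial cadherin, named after its value was seen, had 0.4 and 0.42 TPM. The part of endothelial RNA in the Aqp1 level was not tested.

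The other 5 members had few counts or none. Slc4a1, which encodes band 3 (ENSMUSG00000006574, chromosome 11, 102348824 to 102366203, minus strand), had 0.13 TPM in replicate 1, with 2.73 TPM in replicate 2, or 1.43 ± 1.84 TPM (SD, n = 2), from 22 and 11 counts. Epb42, which encodes protein 4.2 (ENSMUSG00000023216, chromosome 2, 121017891 to 121037072, minus strand), had 0 TPM in replicate 1, with 2.68 TPM in replicate 2, or 1.34 ± 1.90 TPM (SD, n = 2), from 0 and 4 counts. Ermap, an immunoglobulin-like protein of the erythroblast membrane (ENSMUSG00000028644, chromosome 4, 119175457 to 119190011, minus strand), had 0.1 TPM from 5 counts in replicate 1 and 0 counts in replicate 2. Slc4a1 and Epb42 were thus the members with their higher TPM in the shallower library.

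Both Rh members, Rhag and Rhd, were at 0 counts in both libraries. Rhag, the Rh-associated glycoprotein (ENSMUSG00000023926, chromosome 17, 40811126 to 40840754, plus strand), could by counting error alone have reached 0.0347 TPM in replicate 1 or 0.737 TPM in replicate 2, the levels that 3 counts would give. For Rhd, the Rh protein (ENSMUSG00000028825, chromosome 4, 134864536 to 134896172, plus strand), 3 counts would give 0.0787 TPM in replicate 1 or 1.68 TPM in replicate 2. The Sptb level was at least 713-fold higher than that of Rhag in replicate 1 and at least 32.5-fold higher in replicate 2. The Klf1 level was at least 330-fold and at least 11.1-fold higher than that of Rhag. These bounds take the Sptb and Klf1 levels as measured. The limit in replicate 2 is above 1 TPM for Rhd, so a low level there was not detectable at this depth.

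A mean of at least 1 TPM, taken as detection, was reached by 5 of the 8 members, against 22.7% of all Ensembl genes and 42.5% of 21474 protein coding genes. In both libraries only Sptb, Klf1 and Aqp1 reached it, which is 3 members. Slc4a1 and Epb42 passed through replicate 2, where they rested on 11 and 4 counts. In the order of mean levels, Sptb stood above Klf1 and Klf1 above Aqp1 with no overlap between the values of the 2 libraries. From Aqp1 down, through Slc4a1, Epb42, Ermap, Rhag and Rhd, neighbours overlapped. The order below Sptb depended on the authors' estimate. In their posterior mean TPM, Slc4a1 averaged 6.85 TPM (0.73 in replicate 1, 12.97 in replicate 2), Ermap 3.08 TPM, Aqp1 3.04 TPM and Epb42 2.82 TPM. By that estimate Slc4a1 stood above Klf1 in replicate 2, at 12.97 against 6.05 TPM. Of this, 5.38 TPM lay on Slc4a1-205, 2.93 on Slc4a1-203 and 1.82 on Slc4a1-204, all at 0 counts in both libraries. Ermap had 5.68 TPM by that estimate in replicate 2, where it had 0 counts. These parts of the posterior levels do not rest on counted fragments. The Sptb level was 2.16-fold that of Klf1 in replicate 1 and 2.94-fold in replicate 2, and the Klf1 level was 2.58-fold and 3.76-fold that of Aqp1.

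**Figure D1:**
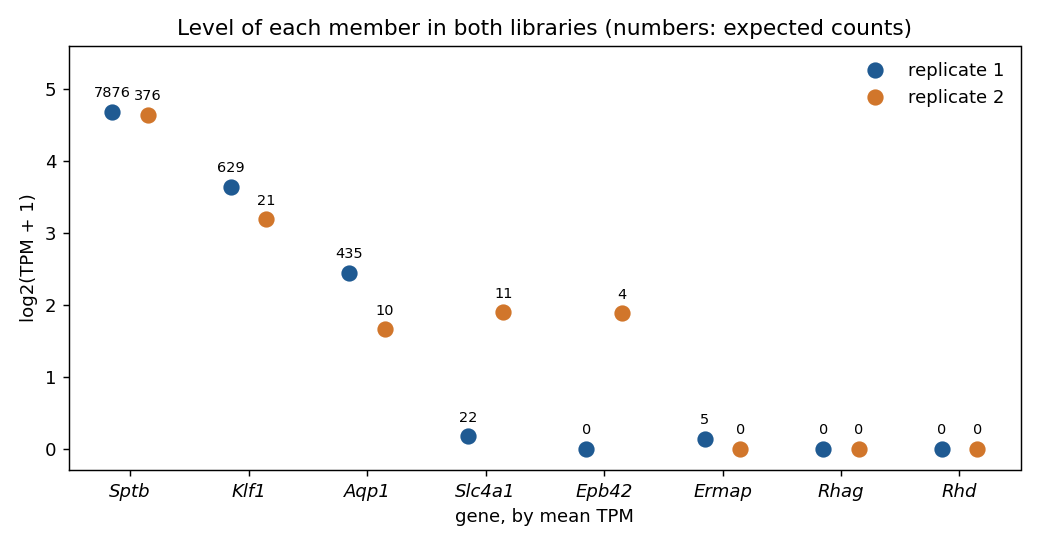
Level of each member as log2(TPM + 1) (y axis) for 8 genes ordered by mean TPM (x axis), with a point for each library and its expected count beside it. Sptb, Klf1 and Aqp1 lie above the others in replicate 1, and in replicate 2 Slc4a1 and Epb42 reach 2.73 and 2.68 TPM, above Aqp1 at 2.17 TPM, with 11 and 4 counts.

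The transcript tables showed which forms carried these levels. Beta spectrin of the red cell is known in human as a form with a shorter C-terminus than the form of muscle, which carries a pleckstrin homology domain. Sptb-202, the shorter coding transcript here (8084 bases, 32 exons, 2137 codons), had 18.45 TPM in replicate 1, with 18.67 TPM in replicate 2. Sptb-201, the longer one (10394 bases, 36 exons, 2329 codons), had 5.24 and 5.29 TPM. The Sptb-202 level was therefore 3.52-fold and 3.53-fold that of Sptb-201. It held 73.2% of the counts of the 2 coding forms in replicate 1 (exact Clopper-Pearson interval 72.2 to 74.2) and 73.2% in replicate 2 (68.4 to 77.6). The quantifier divides fragments between forms, and the intervals cover counting error only. The remaining transcript, a retained intron of 532 bases, took 4.28% of the Sptb TPM in replicate 1 and 0% in replicate 2.

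For Slc4a1 and Epb42 the TPM of replicate 2 came largely from short annotated pieces. Slc4a1-201, the full coding transcript of 4545 bases, held all 22 counts in replicate 1 and 10.03 of 11 counts in replicate 2. Slc4a1-202, a noncoding transcript of 495 bases, was given 0.97 counts in replicate 2, and this fraction made 1.5 of 2.73 TPM, or 54.9%. The dominant transcript by TPM thus differed between the libraries, while by counts it was Slc4a1-201 in both. Epb42-205, a retained intron of 625 bases, held 2 of the 4 counts in replicate 2 and 84.3% of the TPM, and the coding Epb42-201 held the other 2 counts. Of the members with several transcripts and counts in both libraries, which were Sptb and Slc4a1, 1 of 2 had the same dominant transcript by TPM. The 5 counts of Ermap in replicate 1 were spread over 3 transcripts, with 3.8 on Ermap-201, a form annotated for nonsense-mediated decay.

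**Figure D2:**
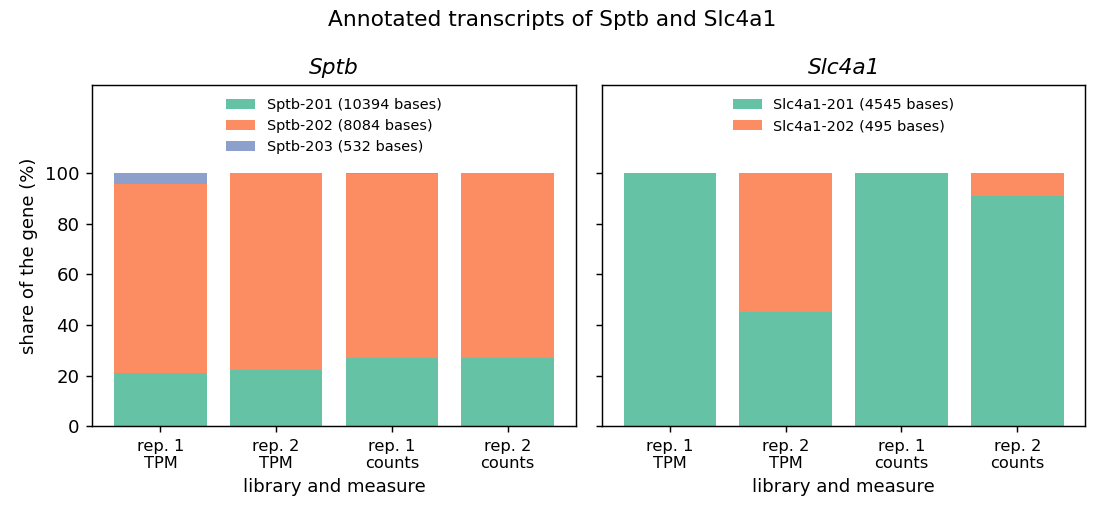
Share of each gene (y axis, percent) taken by its annotated transcripts, by TPM and by counts in each library (x axis), for Sptb and Slc4a1. Sptb-202 takes 74.5% and 77.9% of the Sptb TPM, and Slc4a1-202 takes 54.9% of the Slc4a1 TPM in replicate 2 but 8.82% of its counts.

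The libraries were compared as the ratio of replicate 1 to replicate 2, with counts scaled by TMM, a normalization that trims extreme genes. With 1 library on each side, these ratios describe the libraries and have no replicate check. Genes averaging 100 counts or more, the tested genes, numbered 8194. In replicate 1, 33.8% of them were higher by 2-fold or more, 15.7% were lower by 2-fold or more, and the median log2 ratio was 0.30. In numbers these were 2768 higher and 1288 lower genes, against 3568 and 599 when totals replaced TMM, which moved the median to 0.74. Among 2576 genes averaging at least 50 CPM the balance turned, with 407 higher and 680 lower genes and a median of -0.37. Only Sptb, Klf1 and Aqp1 passed this count minimum, which genes pass mainly through the deeper replicate 1. Of these 3 members, 0 were 2-fold higher and 0 were 2-fold lower.

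Klf1 had a ratio of 1.19 (exact 95% interval 0.775 to 1.94), a log2 ratio of 0.26 that lay above 48.8% of the tested genes. Its interval includes 1. With the GC trend over genes removed, its ratio was 2.30, outside that interval, and its annotated transcript has a GC content of 61.0%. Sptb had a ratio of 0.836 (interval 0.753 to 0.929), above 34.9% of the tested genes, and its direction turned with the scaling, to 1.13 with total counts and 1.07 with the GC trend removed. Aqp1 had a ratio of 1.74 (interval 0.935 to 3.64), above 62.0% of the tested genes, and 2.35 with total counts.

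Slc4a1, under the count minimum, was lower in replicate 1. Its 22 counts in replicate 1 correspond, at an equal level, to 0.878 counts in replicate 2, where 11 were found. The ratio was 0.0798 (exact 95% interval 0.0371 to 0.182). Among 1290 genes with a mean count within 1.5-fold of its own, a comparison chosen after its value was seen, 2.25% had a ratio as low, and 18.7% were at least 2-fold lower in replicate 1. Epb42 had 0 counts in replicate 1 and 4 in replicate 2 (exact 95% Poisson interval 1.09 to 10.2), and the exact upper bound of its ratio was 0.0604. No fold was taken for Ermap, since 5 counts in replicate 1 lie under the level that 3 counts mark in replicate 2, nor for Rhag and Rhd. With any count admitted, a gene at 0 in 1 library counts as past 2-fold by rule. By that rule 45.3% of 16157 genes were higher and 22.4% lower in replicate 1. Of 6 members with counts, Slc4a1 and Epb42 were lower. Ermap enters as higher by the rule alone, since its 5 counts correspond, at an equal level, to 0.199 counts in replicate 2, where 0 were found, so a difference was not detectable at this depth.

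**Figure D3:**
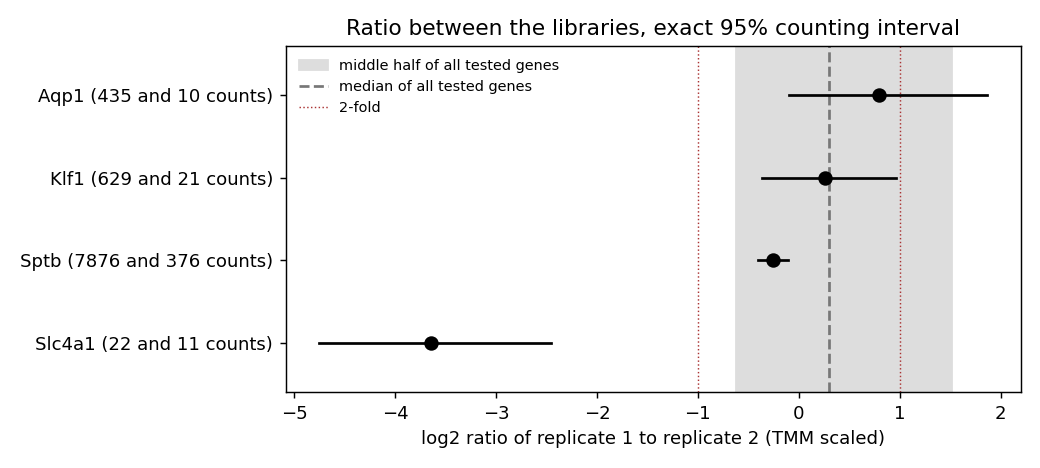
Log2 ratio of replicate 1 to replicate 2 (x axis) for the 4 members with counts in both libraries (y axis), with exact 95% counting intervals. The grey band holds the middle part of all tested genes, from -0.62 to 1.52, and the dashed line is their median of 0.30. Aqp1, Klf1 and Sptb lie inside the band and Slc4a1 lies at -3.65.

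Of 30 other genes of the red cell membrane and its skeleton, 20 reached a mean of 1 TPM. The share was 22.7% of all Ensembl genes and 42.5% of protein coding genes. Not all of the 20 reached 1 TPM in both libraries. Examples, named after their values were seen, are Atp2b4 (3.72 and 0.07 TPM) and Bcam (0.56 and 1.65 TPM). The list had its median at 6.32 TPM in replicate 1 and at 2.09 TPM in replicate 2. The member medians were 0.115 and 2.43 TPM. The highest genes of the list were ones known from many cell types, namely Bsg (basigin) at 3165.77 TPM in replicate 1, with 2209.27 TPM in replicate 2, and Add1 (alpha adducin) at 244.5 and 460.75 TPM. Slc2a1, the glucose transporter, had 105.3 and 98.93 TPM, and Flot1, flotillin, had 157.14 and 44.07 TPM. At the other end was Dmtn (dematin), the lowest, with 0.08 and 0.14 TPM. Ank1, the ankyrin that joins spectrin to band 3, named after its value was seen, had 0.23 and 0.6 TPM from 38 and 5 counts. Of 17 genes of this list over the count minimum, 6 were higher and 1 was lower by 2-fold or more in replicate 1, around a median log2 ratio of 0.35, against 33.8% higher and 15.7% lower among all tested genes. Genes pass this minimum mainly through the deeper replicate 1, so these calls were not read as a result about the list.

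The highest genes in a list of erythroid and shared factors stood far above Klf1. Klf1 had 11.46 TPM in replicate 1, with 8.15 TPM in replicate 2, and Gata1, which activates erythroid and megakaryocyte genes alike, had 218.82 and 1077.27 TPM. That is 19.1-fold and 132-fold the Klf1 level. Zfpm1, the GATA1 cofactor, was highest in the factor list at 1193.09 and 3175.45 TPM, followed by Gata1, by the adaptor Lmo2 at 567.84 and 448.41 TPM and by the repressor Gfi1b at 217.22 and 602.64 TPM. Of 14 listed factors and regulators that were matched, 13 reached a mean of 1 TPM, against 22.7% of all Ensembl genes. The list medians were 122 and 198 TPM. The lowest was Alas2, the red cell enzyme that starts heme synthesis, with 1 count in each library. Over the count minimum, 2 of 13 were higher and 4 were lower by 2-fold or more in replicate 1, against 33.8% and 15.7% of all tested genes. The same limit of the count minimum, passed mainly through the deeper replicate 1, holds for these calls.

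Klf1 also stood below 4 megakaryocyte genes fixed by name. Fli1, the factor known to oppose KLF1, had 59.45 TPM in replicate 1, with 21.39 TPM in replicate 2, or 5.19-fold and 2.62-fold the Klf1 level. Against Sptb, the Fli1 level was 2.40-fold in replicate 1 and 0.893-fold in replicate 2. Itga2b, the platelet integrin alpha subunit, had 4430.19 and 3388.40 TPM, 387-fold and 416-fold the Klf1 level. Gp9 of the von Willebrand factor receptor was 233-fold and 828-fold, and Pf4, platelet factor 4, was 256-fold and 77.7-fold the Klf1 level. Gp6, the lowest of the 12 megakaryocyte markers, had 10.93 and 11.79 TPM, below Klf1 in replicate 1 and above it in replicate 2.

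Markers of other cell types were set beside the members. Of 9 matched erythroid markers, 6 reached a mean of 1 TPM, against 22.7% of all Ensembl genes. The 9 summed to 9590 TPM in replicate 1, with 15954 TPM in replicate 2. The globins made up most of it, led by Hba-a1 with 4480.45 and 12715.5 TPM, a gene whose fragments can be divided with its near-identical copy Hba-a2, while Alas2, with a mean of 0.16 TPM, stood with the low members. Macrophage markers, among which C1qc was highest (344.34 and 144.84 TPM) and Vcam1 lowest (0.04 and 0 TPM), summed to 874 TPM in replicate 1, with 229 TPM in replicate 2. Granulocyte markers, with Prtn3 highest (411.94 and 100.05 TPM) and Elane lowest (24.2 and 6.27 TPM), summed to 805 and 150 TPM. Of these markers, 7 of 8 and 5 of 5 reached a mean of 1 TPM, against 22.7% of all Ensembl genes. Several of them did so through the deeper replicate 1. Over the count minimum, 7 of 7 and 5 of 5 were higher by 2-fold or more in replicate 1, against 33.8% of all tested genes. That minimum is also passed mainly through replicate 1, so these calls describe the libraries only. Hepatocyte markers summed to 1.68 and 1.82 TPM, with Apoa1 highest (1.39 and 1.82 TPM) and Alb and Ttr at 0 counts in both libraries. In bulk RNA, fewer cells of a type and less RNA per cell cannot be told apart. The part of these cells in the member levels was not tested.

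**Figure D4:**
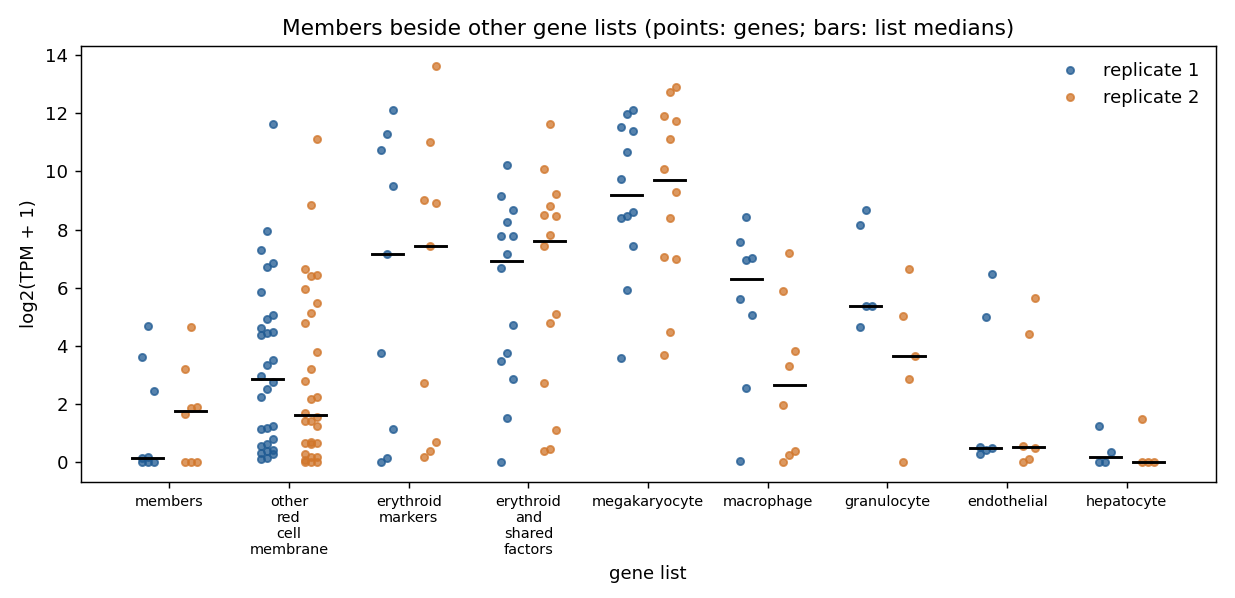
Level of each gene as log2(TPM + 1) (y axis) in 9 gene lists (x axis), with a point for each gene in each library and a bar at the list median. The member medians (0.115 TPM in replicate 1, 2.43 TPM in replicate 2) lie below the megakaryocyte medians of 628 and 863 TPM.

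The 5 protein coding genes nearest to Klf1 were taken by distance in log2(TPM + 1) over the 2 libraries. They were Sppl3 (distance 0.042, 11.28 and 8.38 TPM), Azin2 (0.054), Ext2 (0.056), Spry1 (0.059) and Coq5 (0.064). With only 2 libraries the likeness is weak, and 329 of 21474 protein coding genes lay within a distance of 0.5.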

How the data were processed

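Polyadenylated RNA of megakaryocytes was sequenced in 2 libraries, which form 1 group. Per the file lists deposited with the libraries, the assembly was mm10 and the annotation GENCODE M4. For the aligner and quantifier, names were not given in the sources used here. Expected counts deposited by the authors estimate the fragments of each gene or transcript and can hold fractions, and those of all 8 members were whole at gene level. The TPM deposited by the authors are divided by effective length and scaled per library. Posterior mean TPM, also deposited by the authors, served as an alternative.

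Symbols came from GENCODE M21 (GRCm38, the assembly of mm10) by identifier without version, for 42462 of 43346 genes (98.0%). Of 98 list entries, 96 were matched. Another 26345 rows without a mouse Ensembl gene identifier were left out, with 3.56e-05% of counts in replicate 1 and 0% in replicate 2. TMM factors (1.16 and 0.859) came from edgeR 4.0.16 in R 4.3.3 on rounded expected counts of genes with a mean of at least 10, and DESeq2 1.42.0 gave alternative size factors. Exact 95% intervals used scipy 1.17.1 and, like the floor of 3 counts (0.0713 CPM in replicate 1 and 1.32 CPM in replicate 2), cover counting error only, because PCR copies were not told apart. The GC trend was taken in 20 bins. Ratio code was tested on simulated data. Tables were handled in pandas 2.3.3 with numpy 2.4.6 under Python 3.11.15, and matplotlib 3.10.9 drew the plots.

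The members and lists were chosen with earlier results of these data known. Named were all members, the 4 highest and the lowest gene of the membrane and factor lists, the highest and lowest marker of each other cell type, Fli1, Itga2b, Pf4 and Gp9, genes overlapping a member, and the 5 genes nearest to Klf1. Others are marked where named, and the lowest erythroid marker is not reported here. No test between conditions was made.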

Additional observations from a re-analysis of the deposited data

How the results depend on the processing

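The count of 5 members at a mean of 1 TPM stayed at 5 with a threshold of 0.5 TPM and was 6 with posterior mean TPM, which gave Ermap 3.08 TPM and Slc4a1 6.85 TPM. Ermap passed there through 5.68 TPM in replicate 2, where it had 0 counts. The number of members was 2 with a threshold of 5 TPM and 3 when 1 TPM was required in both libraries. Leaving out each library gave 3 to 5, with 3 from replicate 1 alone. No member over the count minimum was 2-fold higher in replicate 1 with TMM or with DESeq2 size factors, but 1 was with total counts (Aqp1, 2.35) and 1 with the GC trend removed (Klf1, 2.30). The Slc4a1 ratio was 0.120 with a prior count of 0.5, still the lowest of the 4 members with counts in both libraries. With any count admitted, 2 members were lower (Slc4a1 and Epb42) and 1 entered as higher (Ermap, 5 counts against 0), a difference not detectable at the depth of replicate 2. Among all genes, that setting gave 7326 higher and 3627 lower of 16157. A minimum of 50 CPM left Sptb alone, not past 2-fold, with 407 higher and 680 lower of 2576 genes, against 2768 and 1288 of 8194 with the count minimum (3568 and 599 with total counts). The dominant transcript was shared by 1 of 2 members by TPM, by 2 of 2 by counts and by 4 of 5 by posterior mean TPM. Those 4 include Rhd, at 0 counts in both libraries, and Ermap, at 0 counts in replicate 2. They also include Slc4a1, whose dominant form was then Slc4a1-205, at 0 counts in both. For these members the sharing does not rest on counted fragments. The cause of the differences between settings was not tested. No paired analysis was possible because the series holds 1 group. Depth limits replicate 2, where 3 counts mark 1.32 CPM and Klf1, Aqp1 and Slc4a1 rest on 21, 10 and 11 counts.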

Other observations

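Sptan1 and Sptbn1, spectrin genes chosen after their values were seen, were set beside Sptb. Sptan1, the alpha spectrin of most other cells, had 55.92 TPM in replicate 1, with 4.45 TPM in replicate 2, from 2492 and 19 counts. That is 2.26-fold the Sptb level in replicate 1 and 0.186-fold in replicate 2. In replicate 1 Sptan1 held fewer counts than Sptb (2492 against 7876), so its higher TPM there comes from a shorter effective length. Which Sptan1 transcripts carried it was not examined, so the 2.26-fold is not read as more alpha spectrin RNA. Sptbn1, a beta spectrin of most other cells, had 10.4 and 8.37 TPM, or 0.420-fold and 0.349-fold the Sptb level. With 1 library at each depth these are descriptions of the libraries.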
